A study of Mus musculus with 33 samples.

Results

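The response of adult liver endothelium to 2 copies of Runx1 was set against the response of fetal endothelium at E13.5 (E, embryonic day). For every gene the change from control (Ctrl) to 2Runx1 cells was taken in liver and at E13.5 on the log2(RPKM + 1) scale, and the E13.5 change was subtracted from the liver change. RPKM is a read count scaled by transcript length and library size. The comparison used 7 of the 33 samples of the series: 2 Liver 2Runx1, 2 Liver Ctrl, 2 E13.5 2Runx1 and 1 E13.5 Ctrl RNA-seq libraries. Of 25239 genes in the table, 12546 reached an RPKM of 1 in at least 2 of the 13 RNA-seq libraries and were tested.

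All 7 libraries came from mice of a C57BL/6J and 129Sv/J mix. Cells were sorted as CD41-CD45-Ter119-CD31+VEC+, with low or positive cKIT, which selects endothelial cells and removes megakaryocyte, leukocyte and erythroid cells by surface protein. The 2Runx1 mice carried Cre and CKI/CKI, and the Ctrl mice carried CKI/CKI or CKI/+ with no Cre named; the labels name no Cre driver and do not spell out CKI. Liver cells were from adult females of 4 to 6 weeks that received 2 mg tamoxifen by oral gavage, at an interval to harvest that is not given. The E13.5 cells were from whole fetuses, and the pregnant females received 2 mg tamoxifen by intraperitoneal injection 24 h before harvest. Age, organ, tamoxifen route and Runx1 level all differed between the stages, and Cre and the Runx1 copies differed together between 2Runx1 and Ctrl, so none of these can be told apart. Replicates were not stated to come from separate animals or litters, so p-values measure the spread between libraries. The spread of the lone Ctrl library at E13.5 had to be taken from the other groups. These included the E13.5 1Runx1 libraries, with 1 copy, and the E9.5 Ctrl and 1Runx1 libraries, from mice of another strain mix.

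RUNX1 is a transcription factor that binds DNA together with CBFβ. In the embryo it drives the endothelial to hematopoietic transition, in which hemogenic endothelial cells give rise to blood stem and progenitor cells. Most adult endothelium lacks this capacity, and quiescent adult endothelial cells rarely divide, whereas fetal vessels are still growing.

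The libraries held 37754246 to 44540403 reads counted to genes. Pecam1, the gene of CD31, was at 336 and 320 RPKM in Liver 2Runx1, 360 and 348 in Liver Ctrl, 290 and 257 in E13.5 2Runx1 and 280 in E13.5 Ctrl. Cdh5, the gene of VE-cadherin, was at 148 RPKM or more in all 7 libraries. Stab2, a scavenger receptor of liver sinusoidal endothelium, was at 831 and 729 RPKM in Liver 2Runx1 and 828 and 705 in Liver Ctrl, against 42.4 and 88.4 in E13.5 2Runx1 and 60.3 in E13.5 Ctrl. Ptprc, the gene of the sorted-out CD45, lay at or below 1.08 RPKM in every one of the 7 libraries. Stab2 was thus high in liver and low at E13.5, where endothelium of the whole fetus was sampled. Genes on the log2(RPKM + 1) scale had a standard deviation of the difference between replicates of 0.150 in Liver 2Runx1, 0.155 in Liver Ctrl and 0.236 in E13.5 2Runx1.

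Runx1 itself (chromosome 16, 92601466 to 92826074, mm10) was raised in both stages, and more in liver. It was at 78.1 and 78.4 RPKM in Liver 2Runx1, against 1.19 and 1.53 RPKM in Liver Ctrl. At E13.5 it was at 22.7 and 25.2 RPKM in 2Runx1, against 1.37 RPKM in Ctrl. The Ctrl libraries of the stages overlapped, and the liver 2Runx1 libraries lay above those of E13.5. The effect was 5.07 ± 0.10 (SE) in liver, 57.6-fold on mean RPKM, and 3.39 ± 0.12 at E13.5, 17.5-fold. The difference of effects was 1.68 ± 0.16 (limma, adjusted p = 0.000102). The E13.5 libraries of 1Runx1 mice (Cre and CKI/+) held 28.9 and 23.7 RPKM. The first lay above both E13.5 2Runx1 libraries and the second between them, so the 1-copy and 2-copy libraries overlapped at that stage. The size of the Runx1 change was therefore not matched between liver and E13.5, and its part in the differences below was not tested.

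Across all genes the liver response was the wider one. The difference of effects passed the test (limma, Benjamini-Hochberg adjusted p under 0.05 over all genes) for 1029 genes in the positive direction, 8.2% of those tested, and for 363 in the negative direction, 2.89%. In liver, 2149 genes (17.1%) were higher and 1021 (8.14%) lower in 2Runx1 than in Ctrl. At E13.5, 19 genes (0.151%) were higher and 15 (0.12%) lower, in a comparison that had 1 Ctrl library and so less precision. The standard deviation of the effects over genes was 0.348 in liver and 0.205 at E13.5. The split between directions depended on scaling: 73.9% of the called differences were positive as reported, 63.9% after quantile normalization (868 positive, 490 negative) and 60.2% after median centring (810 and 536). For the liver effect alone the share higher was 67.8%, 54.5% after quantile normalization and 46.9% after median centring. Leaving out 1 library changed the number of called differences, with 811 genes without Liver 2Runx1 replicate 2 and 848 without Liver Ctrl replicate 1, against 1392 with all libraries.

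In most called differences the liver effect was larger in size than the E13.5 effect. Among the 1029 positive differences the liver effect was the larger in size in 887 (86.2%), and the E13.5 effect lay within 0.25 of no change in 795. The share of all genes within 0.25 was not counted, and their E13.5 effects had a standard deviation of 0.205. The count of 795 is therefore not read as particular to the called genes. The median effect of the genes with a positive difference was 0.59 in liver and −0.03 at E13.5. Among the 363 negative differences the liver effect was the larger in 291 (80.2%), with a median of −0.45 in liver and 0.13 at E13.5. The share of all genes with the larger effect in liver was not counted. Their effects had a standard deviation of 0.348 in liver and 0.205 at E13.5, and the called genes were picked by the difference. The shares of 86.2% and 80.2% are thus not read as particular to the called genes either. In the E9.5 libraries, where 1Runx1 was compared with its own 2 Ctrl libraries, the medians of these gene groups were 0.04 and 0.00. The E9.5 comparison differed in Runx1 copy number and in strain mix, so these values are only set side by side.

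**Figure D1:**
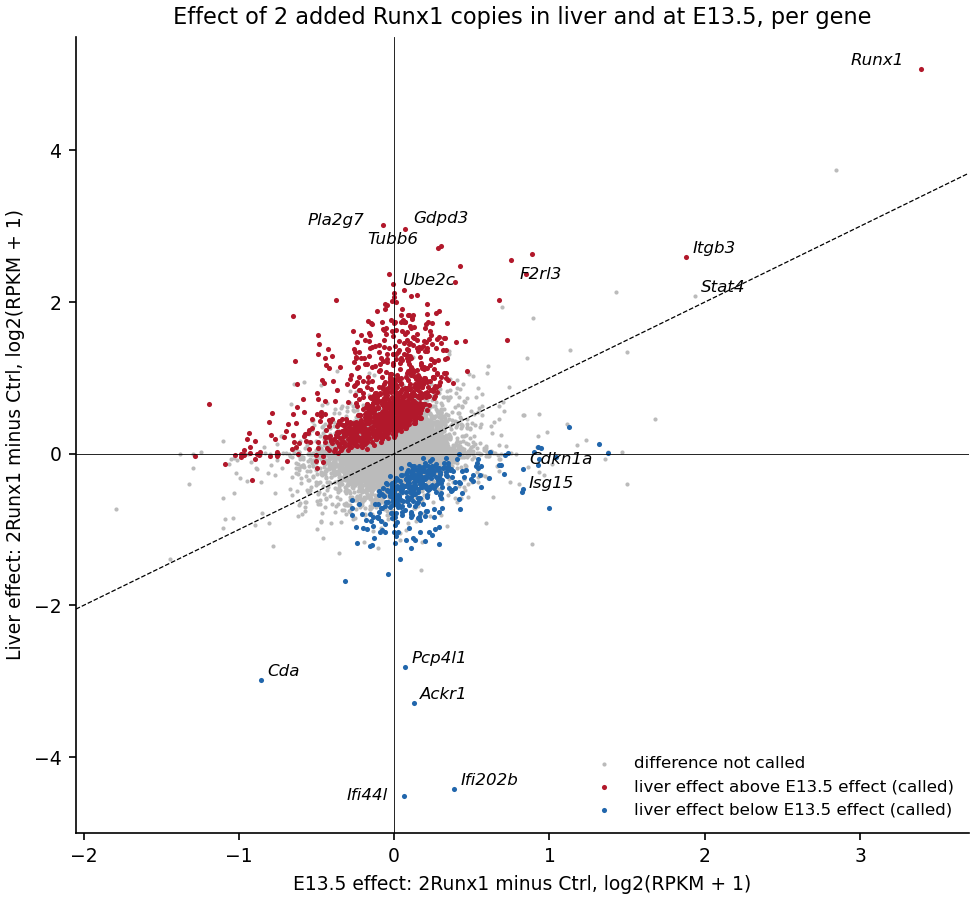
Each point is a gene, with its 2Runx1 minus Ctrl effect at E13.5 on the x axis and in liver on the y axis, both in log2(RPKM + 1); the dashed line marks equal effects, and colours mark the 1029 positive and 363 negative differences that passed the test. The called genes spread along the liver axis, and Runx1 lies far out on both axes at 5.07 in liver and 3.39 at E13.5.

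Cell division genes moved as a block in liver. All 30 genes of a list of mitosis genes rose more in liver, and 28 of 29 genes of DNA replication did, against 8.2% of all genes. No member of either list passed the test at E13.5, where only 0.151% of all genes were called higher and 0.12% lower. The lack of calls at E13.5 is thus not particular to these lists. The summed level of the mitosis list was 374 and 389 RPKM in Liver 2Runx1, against 95.7 and 99.0 RPKM in Liver Ctrl. At E13.5 the same sum was 1384 and 1576 RPKM in 2Runx1 and 1435 RPKM in Ctrl. Liver Ctrl cells thus held these transcripts at a small part of the fetal level, the liver 2Runx1 cells stayed below the fetal level, and the E13.5 groups overlapped. The summed DNA replication list was 678 and 669 RPKM in Liver 2Runx1 against 360 and 349 in Liver Ctrl, and 1432 and 1507 in E13.5 2Runx1 against 1399 in E13.5 Ctrl. In bulk RNA, more cycling cells and more of these transcripts per cell cannot be told apart.

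Mki67, which encodes the Ki-67 antigen of dividing cells, was at 8.6 and 8.94 RPKM in Liver 2Runx1, against 1.9 and 2.1 in Liver Ctrl. It was at 23 and 24.8 RPKM in E13.5 2Runx1, against 26.5 in E13.5 Ctrl. The liver groups stood clear of each other and the E13.5 2Runx1 libraries lay just below their Ctrl, giving a difference of 1.85 ± 0.10 (adjusted p = 4.44e-06). Ccnb1, cyclin B1, the partner of CDK1 at mitotic entry, was at 16.8 and 19.2 RPKM in Liver 2Runx1 and 3.18 and 3.32 in Liver Ctrl, a 5.54-fold change and the largest of the list in liver. Its E13.5 levels were 106 and 116 RPKM in 2Runx1 and 106 in Ctrl, and the difference of effects was 2.09 ± 0.10 (adjusted p = 2.86e-06). Ube2c, a ubiquitin-conjugating enzyme of the anaphase-promoting complex, differed by 2.12 ± 0.15, with 33.3 and 38.4 RPKM in Liver 2Runx1 against 7.61 and 7.35 in Liver Ctrl. At E13.5 it stood at 186 and 234 RPKM in 2Runx1, on either side of the 209 RPKM in Ctrl. Bub1b, a spindle checkpoint kinase, had the smallest liver change of the list at 2.22-fold. E13.5 effects of the 30 mitosis genes ran from −0.28 (Cenpe) to 0.27 (Plk1), with a lowest adjusted p of 0.258.

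Among the replication genes, Rrm2, the regulated subunit of ribonucleotide reductase, was at 14.5 and 15.5 RPKM in Liver 2Runx1 and 3.01 and 3.1 in Liver Ctrl, against 108 and 120 in E13.5 2Runx1 and 119 in E13.5 Ctrl. The difference of effects was 2.04 ± 0.09 (adjusted p = 7.26e-07). Mcm5, a subunit of the replicative helicase, was at 37.7 and 35.8 RPKM in Liver 2Runx1 and 10.2 and 9.76 in Liver Ctrl, and differed by 1.67 ± 0.13. Uhrf1, which maintains DNA methylation behind the fork, had the largest liver change of this list at 5.85-fold. Slbp, the histone mRNA stem-loop binding protein, was the member that did not pass, at 86.2 and 93.9 RPKM in Liver 2Runx1 against 85.7 and 85.1 in Liver Ctrl. The count for mitosis was 30 under each of 14 other settings, and that for replication lay between 26 and 28.

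**Figure D2:**
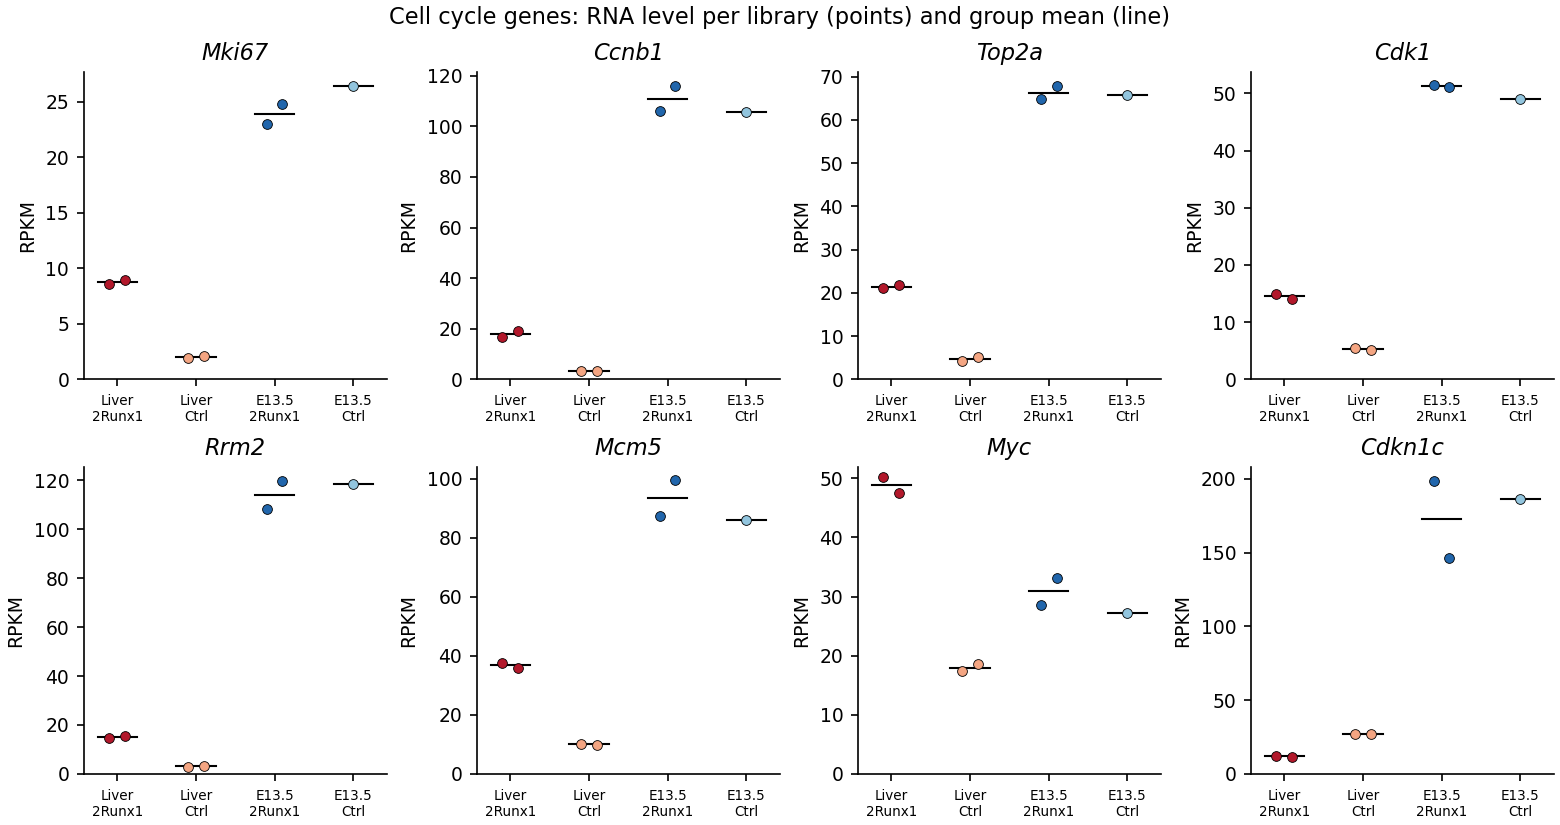
RPKM of 8 cell cycle genes, 1 panel per gene, in Liver 2Runx1, Liver Ctrl, E13.5 2Runx1 and E13.5 Ctrl from left to right; points are libraries and lines group means. Mki67, Ccnb1, Top2a, Cdk1, Rrm2 and Mcm5 are several-fold higher in Liver 2Runx1 than in Liver Ctrl and are higher still in both E13.5 groups; Myc and Cdkn1c are shown beside them.

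Regulators of the cycle changed in liver as well. Myc, a transcription factor of growth and proliferation, was at 50.3 and 47.4 RPKM in Liver 2Runx1 and 17.3 and 18.7 in Liver Ctrl, against 28.5 and 33.2 in E13.5 2Runx1 and 27.2 in E13.5 Ctrl. The Liver 2Runx1 libraries held the highest Myc of these groups, and the difference of effects was 1.22 ± 0.18 (adjusted p = 0.00157). Cdkn1c, the inhibitor p57, was lower in liver, at 12.3 and 11.6 RPKM in 2Runx1 against 27.2 and 26.9 in Ctrl, while the E13.5 groups overlapped at 199 and 146 in 2Runx1 and 186 in Ctrl; its difference was −0.99 ± 0.22 (adjusted p = 0.0158). Cdkn2c, the inhibitor p18, went the other way, at 24.4 and 24 RPKM in Liver 2Runx1 against 11.4 and 11.6 in Liver Ctrl (difference 1.04 ± 0.24, adjusted p = 0.0195). Without Liver 2Runx1 replicate 2 the adjusted p of both was 0.0617; without Liver Ctrl replicate 1 it was 0.0552 for Cdkn1c and 0.0646 for Cdkn2c, and without Liver 2Runx1 replicate 1 it was 0.0603 for Cdkn2c. E2f8, a repressor of the E2F family, was at 2.99 and 2.68 RPKM in Liver 2Runx1 and 0.467 and 0.5 in Liver Ctrl, and E2f1 at 9.48 and 7.82 against 3.35 and 3.17. Ccnd1, cyclin D1, did not pass the test, with a difference of 0.09 ± 0.16. In a list of cyclin-dependent kinase inhibitors and RB-E2F genes, 9 of 22 tested rose more in liver and 2 less, against 8.2% and 2.89% of all genes. The positive count was 5 without either Liver 2Runx1 library, and the negative count was 1 without Liver 2Runx1 replicate 2 or Liver Ctrl replicate 1. This list and the tubulin, ribosome, thrombin and tip cell lists below were chosen after gene values had been seen.

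Growth genes moved with them at smaller sizes. Of 24 ribosome biogenesis genes, all 24 were higher in Liver 2Runx1 than in Liver Ctrl by the test, against 17.1% of all genes. A positive called difference was found for 16, against 8.2% of all genes, with a median difference of 0.49. Fbl, fibrillarin, the methyltransferase of ribosomal RNA, was at 34.6 and 34.5 RPKM in Liver 2Runx1 and 19.6 and 17.3 in Liver Ctrl, against 85.8 and 91.3 in E13.5 2Runx1 and 78.2 in E13.5 Ctrl. Cytosolic ribosomal proteins changed less: 6 of 28 had a called difference, all positive, with a median of 0.18, and 2 had one without Liver 2Runx1 replicate 1, Liver 2Runx1 replicate 2 or Liver Ctrl replicate 1. None of 24 oxidative phosphorylation subunits had one, at a median of −0.00.

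Of 11 tubulin isotypes tested, 7 were higher in Liver 2Runx1 than in Liver Ctrl by the test and none lower. Over all genes 17.1% were higher and 8.14% lower. Tubb6, a beta-tubulin isotype, was at 96 and 93 RPKM in Liver 2Runx1, against a mean of 13.51 in Liver Ctrl, where the libraries differed by less than 0.1 RPKM. At E13.5 it was at 247 and 233 RPKM in 2Runx1 and 197 in Ctrl. Liver Ctrl cells were the only group with a low level, and the difference of effects was 2.43 ± 0.08 (adjusted p = 2e-07). In this list 5 had a positive difference and none a negative one, against 8.2% and 2.89% of all genes. Tubb5 differed by 0.99 ± 0.09 and Tuba1b by 0.73 ± 0.10. Tubb2b, at 9.55 and 12.9 RPKM in E13.5 2Runx1 and 9.68 in E13.5 Ctrl, was below 0.05 RPKM in all liver libraries.

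Promoter sequences were read for the cell division genes because they moved together. Many such genes carry CCAAT boxes, bound by NF-Y, and a cell cycle homology region (CHR), bound by the DREAM and MuvB complexes. The RefSeq promoter window (GRCm38.p6, 250 bases before to 50 after the start) was available for 26 of the 30 mitosis genes and 24 of the 29 replication genes. For the gene groups, a share counts genes with a match in any of their windows. The share of all 32851 promoters counts single windows, so it is not a like measure. CCAAT on either strand (CCAAT or ATTGG) was present in 80.8% of the mitosis promoters (21), 62.5% of the replication promoters (15), 51.9% of those of all genes with a positive difference (826 with a promoter) and 37.4% of all 32851 promoters. TTTGAA on either strand (TTTGAA or TTCAAA), the CHR core, was in 76.9% of the mitosis promoters (20), 12.5% of the replication promoters, 20.3% of those with a positive difference and 17.9% of all. The RUNX core TGTGGT (or ACCACA) was in 11.5% of the mitosis promoters, 20.8% of the replication promoters, 16.1% of those with a positive difference and 16.8% of all. The windows of 3 mitosis genes with many of these letters follow, 5′ to 3′ on the strand of the gene, with the CCAAT boxes and CHR cores in capitals. Top2a (11:99024140-99024439, minus strand) held 6 CCAAT boxes and 2 CHR cores, Ube2c (2:164769679-164769978, plus strand) 6 and 1, with a pair of its boxes overlapping on opposite strands, and Cdk1 (10:69352863-69353162, minus strand) 3 and 2; none held TGTGGT.
Top2a: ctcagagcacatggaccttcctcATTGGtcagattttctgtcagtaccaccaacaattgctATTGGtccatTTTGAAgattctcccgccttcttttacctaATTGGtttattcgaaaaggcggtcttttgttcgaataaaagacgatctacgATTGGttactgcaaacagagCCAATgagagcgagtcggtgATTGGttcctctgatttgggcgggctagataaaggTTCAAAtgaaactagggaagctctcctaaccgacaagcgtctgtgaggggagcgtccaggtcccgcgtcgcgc
Ube2c: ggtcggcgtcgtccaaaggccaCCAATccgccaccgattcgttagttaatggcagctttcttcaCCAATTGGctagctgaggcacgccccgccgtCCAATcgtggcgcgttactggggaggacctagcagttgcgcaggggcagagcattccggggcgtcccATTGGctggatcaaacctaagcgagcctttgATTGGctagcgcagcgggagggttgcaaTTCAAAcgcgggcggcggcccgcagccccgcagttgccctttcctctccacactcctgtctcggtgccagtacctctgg
Cdk1: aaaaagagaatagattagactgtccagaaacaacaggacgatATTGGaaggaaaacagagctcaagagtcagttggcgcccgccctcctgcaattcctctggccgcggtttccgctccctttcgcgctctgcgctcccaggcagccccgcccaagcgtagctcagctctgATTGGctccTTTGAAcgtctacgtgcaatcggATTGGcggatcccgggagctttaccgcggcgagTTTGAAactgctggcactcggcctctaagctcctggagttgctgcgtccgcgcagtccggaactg
The genes behind these windows rose together in liver. Top2a, DNA topoisomerase II alpha, was at 21.2 and 21.7 RPKM in Liver 2Runx1 and 4.16 and 5.09 in Liver Ctrl, against 64.8 and 67.8 in E13.5 2Runx1 and 65.9 in E13.5 Ctrl. Cdk1, the mitotic kinase, was at 15 and 14.1 RPKM in Liver 2Runx1 and 5.43 and 5.04 in Liver Ctrl, and differed by 1.25 ± 0.08. Such a match is a description of letters and does not show binding.

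**Figure D3:**
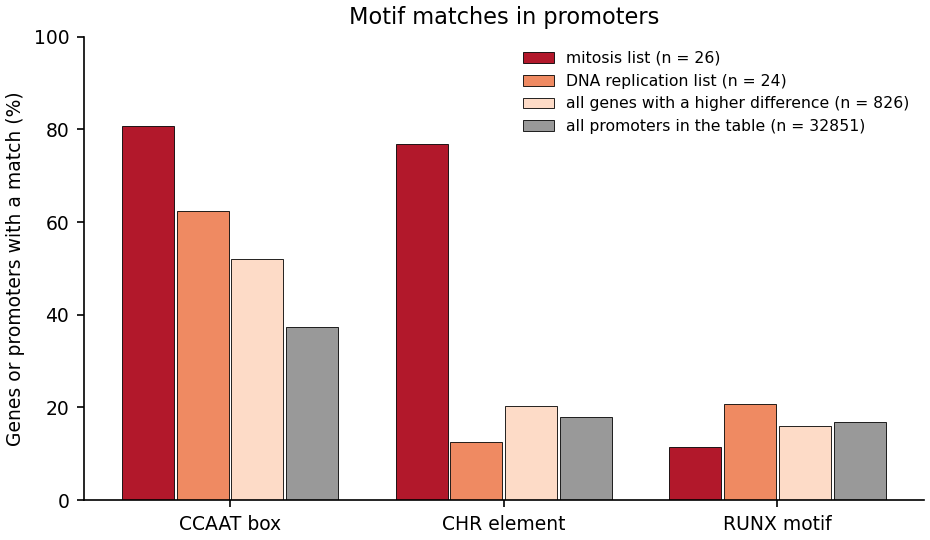
Percent with a CCAAT box, a CHR core or a RUNX core in RefSeq promoter windows. Mitosis genes (n = 26), DNA replication genes (n = 24) and all genes with a positive difference (n = 826) are counted by gene, with a match in any window. All promoters (n = 32851) are counted by single window. The CHR bar stands at 76.9% for mitosis genes and between 12.5% and 20.3% for the other groups, and the RUNX bars lie between 11.5% and 20.8%.

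Outside the cell cycle, the largest positive difference was in Pla2g7 (chromosome 17, 43567994 to 43612202), which encodes the platelet-activating factor acetylhydrolase, a secreted enzyme that degrades platelet-activating factor. It was at 71.8 and 72.2 RPKM in Liver 2Runx1, against 7.91 and 8.1 in Liver Ctrl. At E13.5 it was at 6.04 and 7.59 RPKM in 2Runx1 and 7.19 in Ctrl. The Ctrl levels of the stages were alike and the gene moved in liver, 9-fold, with a difference of 3.09 ± 0.25 (adjusted p = 3.74e-05). Its promoter window (17:43568201-43568500, plus strand) is given because an ATAC-seq peak described below overlaps its end; it holds no TGTGGT or ACCACA, so no letters are in capitals.
Pla2g7: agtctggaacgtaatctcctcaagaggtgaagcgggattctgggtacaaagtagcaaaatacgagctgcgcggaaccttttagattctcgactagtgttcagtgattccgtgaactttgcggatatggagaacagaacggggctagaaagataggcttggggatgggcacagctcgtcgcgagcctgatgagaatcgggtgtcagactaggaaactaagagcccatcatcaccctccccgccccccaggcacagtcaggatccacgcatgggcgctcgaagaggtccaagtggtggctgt

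F2rl3, the thrombin receptor PAR4, rose in both stages and more in liver. It was at 8.96 and 7.68 RPKM in Liver 2Runx1 against 0.548 and 0.622 in Liver Ctrl, and at 11.5 and 11.6 in E13.5 2Runx1 against 6.46 in E13.5 Ctrl. The liver effect was 2.55 ± 0.08, the E13.5 effect 0.75 ± 0.10 (adjusted p = 0.0191), and the difference 1.80 ± 0.13 (adjusted p = 2.03e-05). F2r, the main endothelial thrombin receptor PAR1, changed less, at 461 and 463 RPKM in Liver 2Runx1 against 356 and 326 in Liver Ctrl and 161 and 131 in E13.5 2Runx1 against 156 in E13.5 Ctrl; its difference of 0.54 ± 0.14 (adjusted p = 0.0326) had adjusted p-values of 0.0519 to 0.0967 without each of the 4 liver libraries. Of 11 thrombin and platelet-activating factor genes tested, 5 had a positive and 1 a negative difference, against 8.2% and 2.89% of all genes. Without any 1 of the liver libraries the counts were 3 and 0, and the negative count was also 0 without E13.5 2Runx1 replicate 2.

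Gdpd3, a lysophospholipase D, was at 9.22 and 10.8 RPKM in Liver 2Runx1 and 0.497 and 0.312 in Liver Ctrl, against 1.45 and 1.38 in E13.5 2Runx1 and 1.3 in E13.5 Ctrl, a difference of 2.90 ± 0.16 (adjusted p = 4.44e-06). Ypel3, its neighbour on chromosome 7, went the other way: 24.3 and 25.5 RPKM in Liver 2Runx1 and 53.4 and 53.4 in Liver Ctrl, against 25.8 and 25.5 in E13.5 2Runx1 and 21.5 in E13.5 Ctrl. Its difference was −1.32 ± 0.11 (adjusted p = 3.42e-05). The adjoining genes thus changed in opposite directions in liver, and the library kit did not mark strand. The remaining genes with large positive differences were the cell cycle genes Cks1b (2.07 ± 0.09) and Cenpk (2.05 ± 0.20), D17H6S56E-5 (2.06 ± 0.17), Zfp429 (2.47 ± 0.38), Rnaset2b (2.41 ± 0.69), Trim12a (2.44 ± 0.45) and Trim30d (2.25 ± 0.14). Rnaset2b lost its call in 11 of 14 other settings, among them without E13.5 2Runx1 replicate 2 (adjusted p = 0.104) and without each liver library (up to 0.125 without Liver Ctrl replicate 1).

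**Figure D4:**
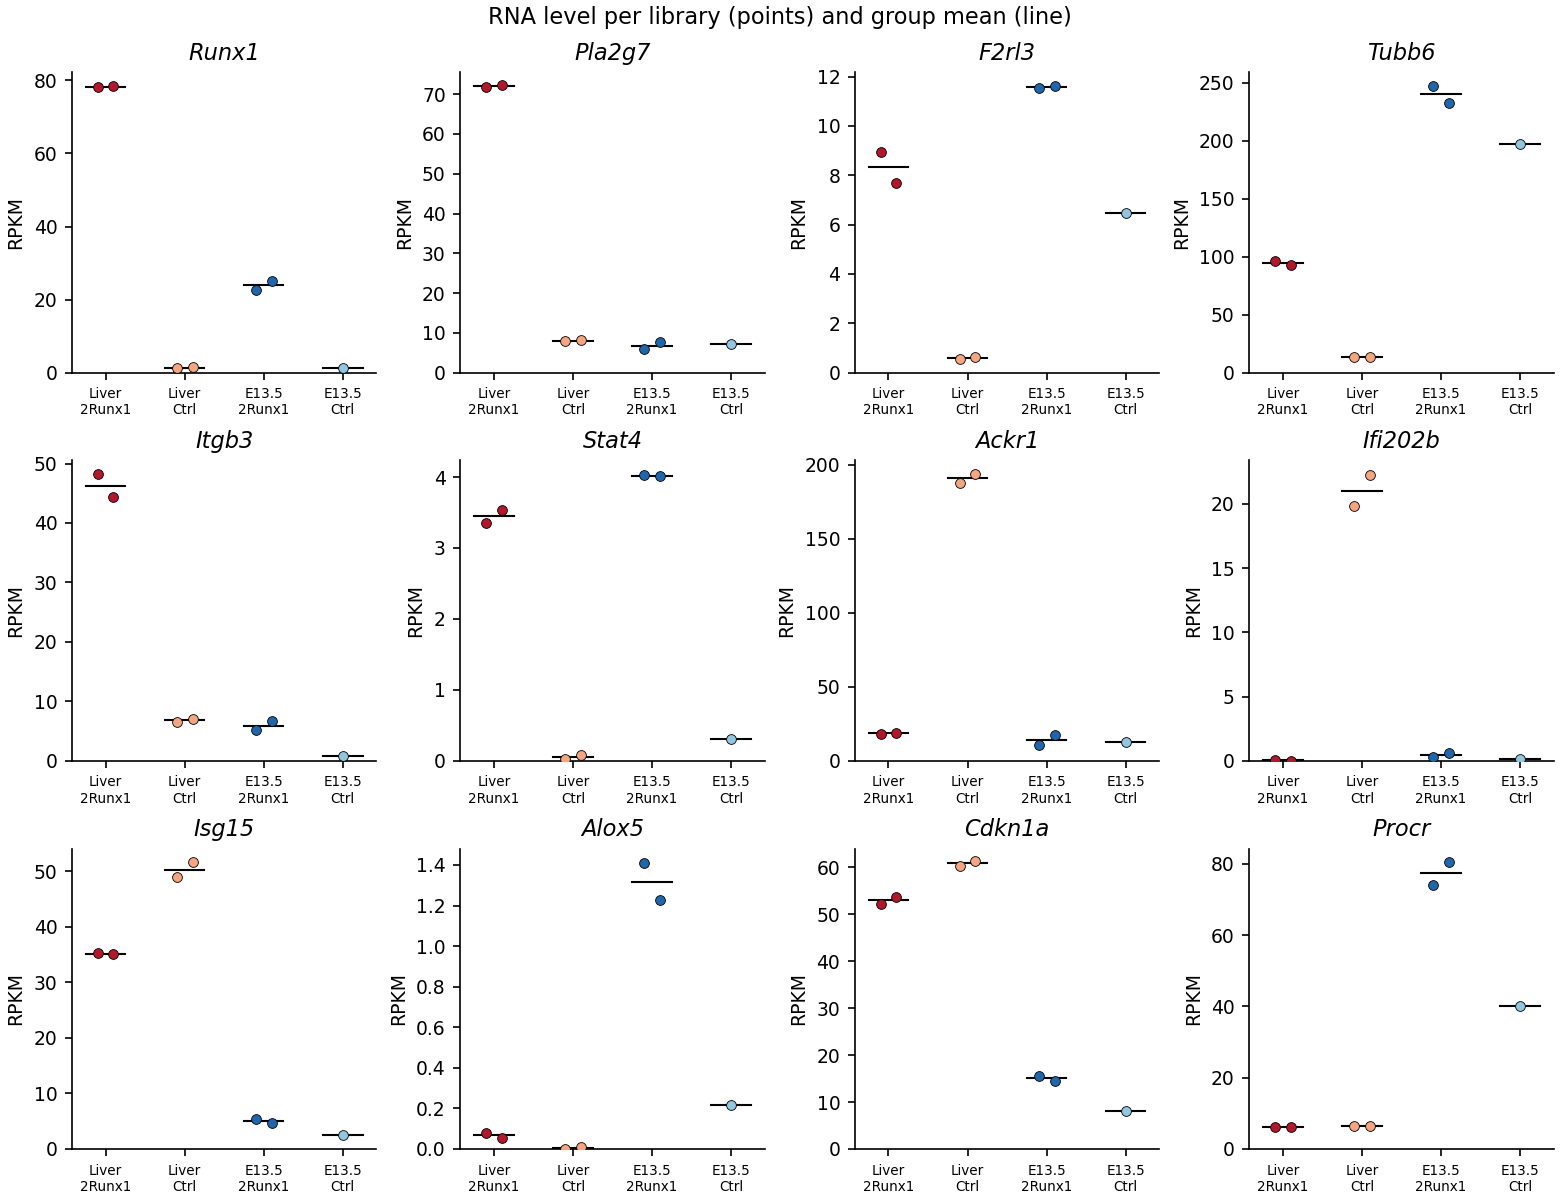
RPKM of 12 genes, 1 panel per gene, in Liver 2Runx1, Liver Ctrl, E13.5 2Runx1 and E13.5 Ctrl from left to right; points are libraries and lines group means. Pla2g7 is high in Liver 2Runx1 alone (71.8 and 72.2 RPKM), Ackr1 is high in Liver Ctrl alone (188 and 194 RPKM), and Stat4 is above its Ctrl in both stages.

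Negative differences were led by genes that liver controls expressed and Liver 2Runx1 cells largely lacked. Ackr1, an atypical chemokine receptor of venular endothelium, was at 18.3 and 19 RPKM in Liver 2Runx1, against 188 and 194 in Liver Ctrl. At E13.5 it was at 11 and 17.4 RPKM in 2Runx1 and 12.6 in Ctrl. Liver 2Runx1 cells thus lay close to the fetal level, and the difference of effects was −3.41 ± 0.30 (adjusted p = 6.38e-05). Ifi202b, an interferon-inducible gene of the Ifi200 family, was at 0.0311 and 0.0173 RPKM in Liver 2Runx1 and 19.8 and 22.3 in Liver Ctrl, against 0.298 and 0.595 in E13.5 2Runx1 and 0.102 in E13.5 Ctrl (difference −4.81 ± 0.20, adjusted p = 7.26e-07). Ifi44l was at 0.0217 and 0 RPKM in Liver 2Runx1 and 19.9 and 24.4 in Liver Ctrl, and at or below 0.15 RPKM in the 3 E13.5 libraries (difference −4.58 ± 0.17). The near absence of both in Liver 2Runx1 stood apart from the rest of the interferon genes described below. Pcp4l1 was at 0.851 and 1.28 RPKM in Liver 2Runx1 and 13.3 and 13.7 in Liver Ctrl, against 6.61 and 7.81 in E13.5 2Runx1 and 6.79 in E13.5 Ctrl (difference −2.89 ± 0.22).

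Some of these genes lie close together in families with near-identical copies, where reads can be split between copies. In a stretch of chromosome 1 from 171 to 174.5 Mb, chosen after the values were seen, 50 genes were tested and 8 (16%) had a called difference, a share near the 11.1% of all genes tested: Ifi207, Ifi206, Apoa2 and Tagln2 were positive, and Ifi202b, Ackr1, Pcp4l1 and Slamf1 negative. A stretch of chromosome 7 from 104.2 to 104.6 Mb was also chosen after the values were seen. In it 8 genes were tested and 50% had a called difference: Trim12a, Trim30d and Trim5 were positive and Trim34b negative. Trim12a and Trim30d were already among the largest differences, so this share is not a separate result. Trim12a was at 5.85 and 5.51 RPKM in Liver 2Runx1 and listed at 0 in both Liver Ctrl libraries, and at 0 and 0.519 RPKM in E13.5 2Runx1 and 0 in E13.5 Ctrl. Trim34b was at 3.53 and 3.44 RPKM in Liver 2Runx1, against 9.11 and 9.21 in Liver Ctrl. The labels name both C57BL/6J and 129Sv/J and do not give the strain of origin of these stretches in each library, so its part in these values was not tested.

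Further genes with large negative differences included Cda, cytidine deaminase, at 0.448 and 0.652 RPKM in Liver 2Runx1 against 11.7 and 10.7 in Liver Ctrl, and 5.96 and 12.3 in E13.5 2Runx1 against 16.4 in E13.5 Ctrl (difference −2.12 ± 0.38, adjusted p = 0.00562). Cyp26b1, which degrades retinoic acid, was at 9.02 and 9.31 RPKM in Liver 2Runx1 and 23.4 and 21.1 in Liver Ctrl (difference −1.48 ± 0.20). Mctp1 (−1.55 ± 0.15), Gpr155 (−1.42 ± 0.15), Sfn (−1.36 ± 0.15) and Calr3 (−1.35 ± 0.21) completed the set. Each of these 6 genes was lower in Liver 2Runx1 than in Liver Ctrl without overlap, and each had no called change at E13.5. The genes were picked for their negative difference, and the share of all genes without overlap was not counted. At E13.5 only 0.151% of all genes were called higher and 0.12% lower. Neither point is thus a separate result.

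Endothelial identity genes changed in both directions. Of 26 endothelial identity genes, 2 had a positive and 8 a negative difference, with a median of −0.17 beside 0.02 over all genes, where 8.2% were positive and 2.89% negative. The negative count was 3 and 2 without Liver 2Runx1 replicate 1 and 2, 2 and 5 without Liver Ctrl replicate 1 and 2, 5 without E13.5 2Runx1 replicate 2 and 3 with the 7 libraries fitted alone. The positive count was 1 without Liver 2Runx1 replicate 2. Erg, an ETS factor that maintains endothelial identity, was at 13.6 and 15.1 RPKM in Liver 2Runx1 and 23.3 and 22.3 in Liver Ctrl, against a mean of 14.2 ± 0.96 (SD, n = 2) in E13.5 2Runx1 and 14.8 in E13.5 Ctrl. The Liver 2Runx1 libraries were at the fetal level, with a difference of −0.58 ± 0.12 (adjusted p = 0.01). Plvap, the diaphragm protein of fenestrae, was higher, at 600 and 580 RPKM in Liver 2Runx1 and 363 and 367 in Liver Ctrl, against 525 and 457 in E13.5 2Runx1 and 524 in E13.5 Ctrl (difference 0.79 ± 0.10). Pecam1 and Cdh5 had differences of −0.07 ± 0.10 and 0.15 ± 0.08 that did not pass the test. Vwf (−0.76 ± 0.19, adjusted p = 0.03) and Cd34 (−0.60 ± 0.13, adjusted p = 0.0144) passed, but without Liver 2Runx1 replicate 1 the adjusted p was 0.061 for Vwf and 0.0511 for Cd34; for Vwf it was also above the threshold without each other liver library (up to 0.102 without Liver 2Runx1 replicate 2) and without E13.5 2Runx1 replicate 2 (0.0644).

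Arterial, venous and sinusoidal genes were read next. Of 16 arterial genes, none had a positive and 5 a negative difference, at a median of −0.34, and 7 were lower in Liver 2Runx1 than in Liver Ctrl. Over all genes 8.2% had a positive and 2.89% a negative difference, and 8.14% were lower in Liver 2Runx1. The arterial count was 2 without Liver 2Runx1 replicate 1, Liver 2Runx1 replicate 2 or Liver Ctrl replicate 1, and 3 with the replicate block. Gja4, connexin 37, was at 248 and 244 RPKM in Liver 2Runx1 and 368 and 375 in Liver Ctrl, against 34.7 and 38.7 in E13.5 2Runx1 and 34.3 in E13.5 Ctrl (difference −0.68 ± 0.11, adjusted p = 0.00331). Vegfc, a lymphatic growth factor, was at 2.24 and 2.66 RPKM in Liver 2Runx1 and 5.93 and 5.65 in Liver Ctrl, against 14.7 and 18.7 in E13.5 2Runx1 and 15.4 in E13.5 Ctrl (difference −1.08 ± 0.16). Dll4, the arterial Notch ligand, was at 43.2 and 38.8 RPKM in Liver 2Runx1 and 78.4 and 74.4 in Liver Ctrl; its difference of −0.74 ± 0.19 (adjusted p = 0.0315) was above the threshold without each liver library in turn (up to 0.112 without Liver 2Runx1 replicate 2) and without E13.5 2Runx1 replicate 1 (0.0648). Of 8 venous genes, 1 had a positive and 1 a negative difference, and neither was called without any 1 of the liver libraries. The positive count was 0 without E13.5 2Runx1 replicate 1 and 2 without replicate 2, where the negative count was 0. Of 24 sinusoidal genes, 1 had a called difference: Wnt2, an angiocrine ligand, at 234 and 231 RPKM in Liver 2Runx1 against 353 and 347 in Liver Ctrl and at or below 1.13 RPKM in the E13.5 libraries. The Wnt2 difference of −0.74 ± 0.15 (adjusted p = 0.0122) had an adjusted p of 0.0509 without Liver 2Runx1 replicate 2 and 0.0501 without Liver Ctrl replicate 1. The sinusoidal count turned on the E13.5 libraries: 7 were negative without E13.5 2Runx1 replicate 1, and 5 were positive and 2 negative without E13.5 2Runx1 replicate 2.

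Notch genes gave 1 positive and 2 negative differences among 17; the negative count was 0 without Liver Ctrl replicate 1 and 1 without each other liver library or E13.5 2Runx1 replicate 1. Hes1, a Notch target repressor, was at 97.7 and 102 RPKM in Liver 2Runx1 and 202 and 194 in Liver Ctrl, against 43.5 and 38.3 in E13.5 2Runx1 and 47.1 in E13.5 Ctrl; the difference of −0.78 ± 0.16 (adjusted p = 0.0128) had an adjusted p of 0.051 without Liver Ctrl replicate 1. Nrarp, a feedback inhibitor of Notch, went up, at 35.5 and 31.6 RPKM in Liver 2Runx1 and 20.8 and 19 in Liver Ctrl (difference 0.78 ± 0.16). Beside the Notch counts and the tip cell counts below, 8.2% of all genes had a positive and 2.89% a negative difference. Among 12 tip cell genes, 1 had a positive difference, Apln, the apelin ligand, at 4.04 and 4.65 RPKM in Liver 2Runx1 against 1.24 and 1.82 in Liver Ctrl and 57.8 and 50.2 in E13.5 2Runx1 against 50.5 in E13.5 Ctrl, and 3 had a negative one (2 and 2 without E13.5 2Runx1 replicate 1, 1 and 5 without replicate 2).

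The series title names TGFβ target genes and hemogenic specification. Of 25 genes for TGFβ ligands, receptors and SMADs, 1 had a called difference, Tgfb3, a TGFβ ligand, at 3.76 and 3.04 RPKM in Liver 2Runx1 and 0.471 and 0.671 in Liver Ctrl, against 2.82 and 3.41 in E13.5 2Runx1 and 1.99 in E13.5 Ctrl. Its difference was 1.03 ± 0.19 (adjusted p = 0.00746). Of 24 TGFβ target genes, 1 was positive, Angptl4, an inhibitor of lipoprotein lipase, at 7.66 and 7.88 RPKM in Liver 2Runx1 and 2.12 and 2.16 in Liver Ctrl (difference 1.29 ± 0.24), and 3 were negative, Fn1, Cdkn1a and Hbegf. Fn1, fibronectin, had adjusted p-values of 0.0643 to 0.0724 without each of the 4 liver libraries, and Hbegf, an EGF receptor ligand, of 0.0644 without Liver Ctrl replicate 1 and 0.0559 without Liver Ctrl replicate 2. The median difference was 0.04 for the components and 0.08 for the targets, and over all genes 8.2% were positive and 2.89% negative. Without E13.5 2Runx1 replicate 1, 6 targets were positive, and with the 7 libraries fitted alone 3 were; 1 was negative without either Liver Ctrl library. The components had 2 positive differences without E13.5 2Runx1 replicate 1, where 1 was negative, and 2 without Liver Ctrl replicate 2. Of 17 hemogenic and stem cell regulators, none had a positive and 2 a negative difference; the negative count was 4 without E13.5 2Runx1 replicate 1, and 0 without Liver 2Runx1 replicate 2 or Liver Ctrl replicate 1 and 1 without each other library. Without E13.5 2Runx1 replicate 2, 1 was positive. Gfi1b, a repressor of the endothelial program downstream of RUNX1, was at 0 and 0.017 RPKM in Liver 2Runx1 and listed at 0 in both Liver Ctrl libraries, against 1.04 and 1.51 in E13.5 2Runx1 and 2.54 in E13.5 Ctrl. Spi1, which encodes PU.1, was at or below 2.3 RPKM in the 7 libraries. Among RUNX partners, Cbfb was at 46.8 and 46.9 RPKM in Liver 2Runx1 and 34.4 and 33 in Liver Ctrl, against 39.5 and 43.8 in E13.5 2Runx1 and 44.1 in E13.5 Ctrl (difference 0.55 ± 0.10, adjusted p = 0.00632). Runx2 and Runx3 stayed at or below 0.119 RPKM in the 7 libraries and were not tested.

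Inflammatory signalling genes changed in both directions in liver. Beside the counts below, 17.1% of all genes were called higher in Liver 2Runx1 than in Liver Ctrl and 8.14% lower. Nfkb1, the p105 precursor of NF-κB p50, was at 53.2 and 51.2 RPKM in Liver 2Runx1 and 31.7 and 31.6 in Liver Ctrl, against 15.5 and 16.9 in E13.5 2Runx1 and 17.1 in E13.5 Ctrl (difference 0.78 ± 0.12). Nfkbia, its inhibitor and target, was lower, at 226 and 241 RPKM in Liver 2Runx1 and 340 and 354 in Liver Ctrl (difference −0.68 ± 0.09), as was Csf1, the macrophage growth factor, at 53 and 48.1 RPKM against 93.8 and 88.7 (difference −1.09 ± 0.15). These were the 3 called members of 19 genes of leukocyte adhesion and NF-κB (5 and 6 without E13.5 2Runx1 replicate 1 and 2); 8 of the 19 were lower in Liver 2Runx1 than in Liver Ctrl. Of 19 immediate early genes, 9 were lower in liver, and the difference was called for Myc and Ier2 only; that of Ier2 had adjusted p-values of 0.0682 to 0.0908 without each of the 4 liver libraries. Interferon-stimulated genes had no positive and 5 negative differences among 31, at a median of −0.34, from a median of −0.07 in liver and 0.28 at E13.5, where none passed the test. Over all genes 8.2% had a positive and 2.89% a negative difference, which also holds beside the list counts that follow. In the E13.5 comparison 0.151% of all genes were called higher and 0.12% lower. The interferon count was 3 without Liver 2Runx1 replicate 1 or either Liver Ctrl library and with a pseudocount of 0.1, 8 after median centring and 10 with the 7 libraries fitted alone. Isg15, a ubiquitin-like modifier, was at 35.2 and 35.1 RPKM in Liver 2Runx1 and 48.9 and 51.6 in Liver Ctrl, against 5.47 and 4.71 in E13.5 2Runx1 and 2.43 in E13.5 Ctrl, a difference of −1.33 ± 0.25 (adjusted p = 0.00766). Rsad2, the antiviral enzyme viperin, was at 22.9 and 21 RPKM in Liver 2Runx1 and 33.8 and 37 in Liver Ctrl (difference −0.85 ± 0.16). Antigen presentation gave 1 negative difference among 15 genes, which was 0 without each library in turn apart from E13.5 2Runx1 replicate 1, where it was 2. Glycolysis and hypoxia gave 3 positive and 2 negative differences among 21, and the negative count was 0 without any 1 of the liver libraries and 1 without E13.5 2Runx1 replicate 2. Ldha, lactate dehydrogenase A, was at 423 and 406 RPKM in Liver 2Runx1 against 289 and 284 in Liver Ctrl. Of 14 genes of endothelial to mesenchymal transition, 4 had a positive and 2 a negative difference, against 8.2% and 2.89% of all genes. The positive count was 2 without Liver 2Runx1 replicate 1 or 2, Liver Ctrl replicate 1 or E13.5 2Runx1 replicate 2, and the negative count was 0 or 1 without each liver library. Twist1, a transcription factor of the program, was at 19.7 and 21.6 RPKM in Liver 2Runx1 and 11.5 and 11.5 in Liver Ctrl (difference 0.91 ± 0.16).

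A smaller set of differences was carried by the E13.5 side. Cdkn1a, the inhibitor p21 and a p53 target, was at 52.3 and 53.6 RPKM in Liver 2Runx1 and 60.3 and 61.3 in Liver Ctrl, against 15.6 and 14.6 in E13.5 2Runx1 and 8.05 in E13.5 Ctrl. The liver effect was −0.20 ± 0.12, the E13.5 effect 0.83 ± 0.15 (adjusted p = 0.0543), and the difference −1.03 ± 0.19 (adjusted p = 0.00639). It was 1 of 2 called among 25 p53 targets, the other being Apaf1, an apoptosis activator, with adjusted p-values of 0.0719 without Liver 2Runx1 replicate 1, 0.136 without Liver 2Runx1 replicate 2, 0.129 without Liver Ctrl replicate 1 and 0.0856 without E13.5 2Runx1 replicate 2. Beside these 2 p53 targets, both negative, 2.89% of all genes had a negative difference. Procr, the endothelial protein C receptor, was at 6.03 and 6.21 RPKM in Liver 2Runx1 and 6.33 and 6.56 in Liver Ctrl, against 74.2 and 80.6 in E13.5 2Runx1 and 40 in E13.5 Ctrl. Its difference of −0.998 ± 0.24 (adjusted p = 0.0239) was above the threshold without each liver library (up to 0.0702 without Liver 2Runx1 replicate 2) and without E13.5 2Runx1 replicate 2 (0.0504). Alox5, 5-lipoxygenase, the first enzyme of leukotriene synthesis, was at 0.079 and 0.0549 RPKM in Liver 2Runx1 and 0 and 0.0107 in Liver Ctrl, against 1.41 and 1.23 in E13.5 2Runx1 and 0.217 in E13.5 Ctrl. Its difference of −0.84 ± 0.18 (adjusted p = 0.0156) came from levels near 0 in liver; the adjusted p was 0.0533 without Liver 2Runx1 replicate 2, and the sign turned in a fit on recovered reads (0.33). All of these E13.5 values rest on 1 Ctrl library.

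Genes of erythroid cells and megakaryocytes had called differences whose number turned on the setting. Of 10 erythroid genes tested, 4 had a positive difference, against 8.2% of all genes, with a median effect of −0.03 in liver and −0.92 at E13.5. The count was 0 on recovered reads and with a pseudocount of 0.1, and 2 without any 1 of the liver libraries or E13.5 2Runx1 replicate 2. Gata1, the erythroid and megakaryocyte factor, was listed at 0 in 3 of the 4 liver libraries, against 1.99 and 1.89 RPKM in E13.5 2Runx1 and 4.37 in E13.5 Ctrl. The summed erythroid markers were 23.6 and 21.3 RPKM in Liver 2Runx1 and 37.1 and 35.6 in Liver Ctrl, against 1230 and 595 in E13.5 2Runx1 and 1195 in E13.5 Ctrl, so the E13.5 sums overlapped; Hba-a1, Hbb-bs and Hbb-bt were listed at 0 in all 7 libraries. Of 10 megakaryocyte genes, 3 were positive and 1 negative; the positive count was 0 on recovered reads and with a pseudocount of 0.1, and 1 without Liver 2Runx1 replicate 1 or 2 or Liver Ctrl replicate 1. Itgb3, integrin β3, was at 48.2 and 44.4 RPKM in Liver 2Runx1 and 6.57 and 7.06 in Liver Ctrl, against 5.15 and 6.62 in E13.5 2Runx1 and 0.862 in E13.5 Ctrl. It rose 6.79-fold in liver and 6.83-fold at E13.5 on mean RPKM, so its log2(RPKM + 1) difference of 0.72 ± 0.17 (adjusted p = 0.0227) depended on the pseudocount: it was 0.12 with a pseudocount of 0.1 and 0.01 on recovered reads. Without Liver 2Runx1 replicate 1, Liver 2Runx1 replicate 2 and Liver Ctrl replicate 1 its adjusted p was 0.0778, 0.0516 and 0.0797.

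Markers of other cells that a sort can carry along were read beside these results, and their part in them was not tested. The 17 hepatocyte markers summed to 181 and 179 RPKM in Liver 2Runx1 and 179 and 192 in Liver Ctrl, against 204 and 294 in E13.5 2Runx1 and 286 in E13.5 Ctrl; 5 of 16 tested had a positive and 1 a negative difference, against 8.2% and 2.89% of all genes. The positive count was 3 without Liver 2Runx1 replicate 2 or Liver Ctrl replicate 1, 8 without E13.5 2Runx1 replicate 2 and 2 with a pseudocount of 0.1; the negative count was 2 without E13.5 2Runx1 replicate 1. Apoa1, an apolipoprotein, was at 16.2 and 15.6 RPKM in Liver 2Runx1 and 10.5 and 10.9 in Liver Ctrl, against 11 and 16.5 in E13.5 2Runx1 and 24 in E13.5 Ctrl. The 17 macrophage and Kupffer cell markers summed to 439 and 454 RPKM in Liver 2Runx1 and 464 and 497 in Liver Ctrl, against 33.3 and 40.5 in E13.5 2Runx1 and 38.5 in E13.5 Ctrl, with 3 positive differences of 15. That count was 0 without Liver 2Runx1 replicate 2 or Liver Ctrl replicate 1 and with a pseudocount of 0.1, and 1 without Liver 2Runx1 replicate 1; 1 was negative without E13.5 2Runx1 replicate 1. The hepatocyte sums overlapped between the liver groups, and the macrophage sums were slightly lower in Liver 2Runx1. Pan-leukocyte markers summed to 64.0 and 60.5 RPKM in Liver 2Runx1 and 54.3 and 52.1 in Liver Ctrl, against 183 and 137 in E13.5 2Runx1 and 139 in E13.5 Ctrl, with none of 9 called. The neutrophil and mast cell sum lay between 3.01 and 8.03 RPKM in liver and overlapped between the groups there, with none of 6 called, and Mcpt4 was listed at 0 in all 7 libraries. The sum of 12 T, NK and B cell markers was 3.27 and 2.40 RPKM in Liver 2Runx1 and 3.54 and 3.97 in Liver Ctrl, against 3.67 and 4.09 in E13.5 2Runx1 and 3.28 in E13.5 Ctrl. Mesenchymal and stellate cell markers summed to 43.6 and 48.1 RPKM in Liver 2Runx1 and 95.6 and 92.3 in Liver Ctrl, against 173 and 122 in E13.5 2Runx1 and 167 in E13.5 Ctrl. The mesenchymal sum was thus lower in Liver 2Runx1 than in Liver Ctrl without overlap, as the erythroid sum was; 1 of 13 had a called difference, Lrat, the retinol acyltransferase of stellate cells, with adjusted p-values of 0.0904 without Liver 2Runx1 replicate 2, 0.0733 without Liver Ctrl replicate 1 and 0.0568 without E13.5 2Runx1 replicate 2. Cholangiocyte markers had none of 5 called, and neural markers 1 of 6, Nes.

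**Figure D5:**
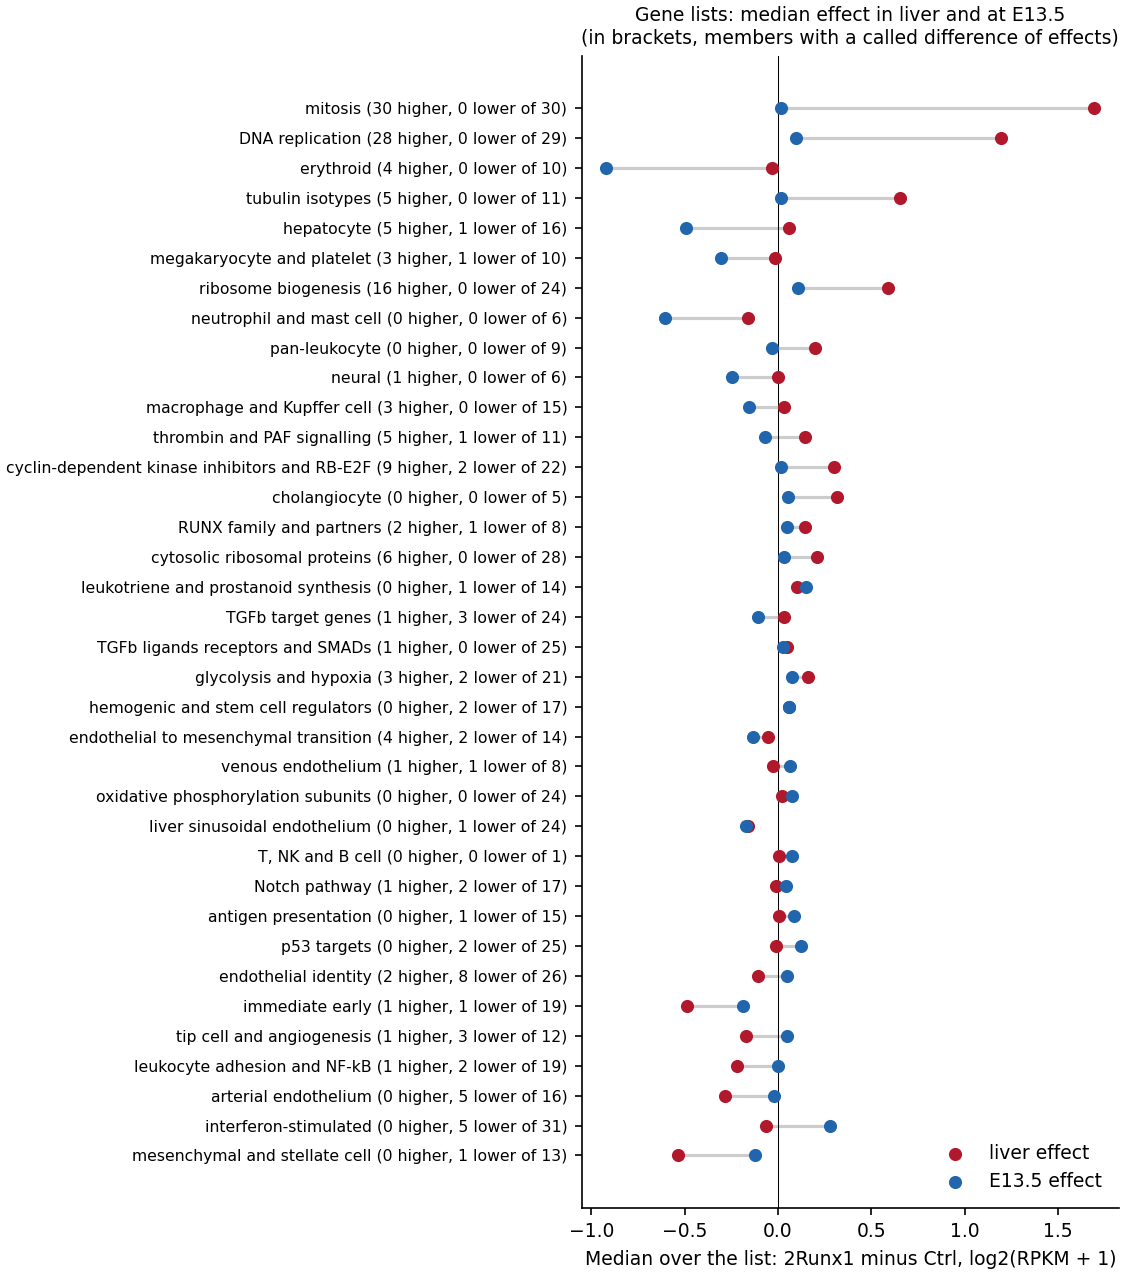
Median 2Runx1 minus Ctrl effect in liver (red) and at E13.5 (blue), in log2(RPKM + 1), for each gene list, with the number of positive and negative called differences among the genes tested. Mitosis and DNA replication stand at 1.69 and 1.19 in liver against 0.02 and 0.10 at E13.5, and the erythroid list is at −0.92 at E13.5.

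Runx1 included, 15 genes passed the test in liver and at E13.5, which is 44.1% of the 34 genes called at E13.5 and 0.473% of the 3170 called in liver, where 25.3% of all genes passed. The number called at E13.5 was 256 without E13.5 2Runx1 replicate 1, 111 without replicate 2 and 17 without any 1 of the liver libraries. Each of the 15 went in the same direction, and for 9 of them the difference of effects did not pass (6 higher and 3 lower). Stat4, a signal transducer of interleukin-12, was at 3.36 and 3.54 RPKM in Liver 2Runx1 and 0.0198 and 0.0865 in Liver Ctrl, against 4.03 and 4.01 in E13.5 2Runx1 and 0.311 in E13.5 Ctrl. The 2Runx1 levels of the stages were close, with effects of 2.08 ± 0.09 in liver and 1.94 ± 0.12 at E13.5, and the difference of 0.14 had a 95% interval from −0.19 to 0.47. With Ctrl levels near 0 this value depended on the pseudocount: the Stat4 difference was 1.24 with a pseudocount of 0.1 and 2.49 on recovered reads, where it passed the test (adjusted p = 0.0473, limma-voom), and −0.25 after quantile normalization. Ltc4s, leukotriene C4 synthase, was at 74 and 80.4 RPKM in Liver 2Runx1 and 29.3 and 30.4 in Liver Ctrl, against 2.4 and 3.81 in E13.5 2Runx1 and 0.433 in E13.5 Ctrl, with effects of 1.34 ± 0.14 and 1.498 ± 0.18. The Ltc4s difference of −0.16 was −1.19 with a pseudocount of 0.1, where it passed the test (limma, adjusted p = 0.0424), and −1.38 on recovered reads. Dok2, an adaptor of tyrosine kinase signalling, rose by 1.36 ± 0.14 in liver and 1.13 ± 0.18 at E13.5. AI467606 rose by 2.14 ± 0.13 and 1.43 ± 0.16, a difference that passed with a pseudocount of 0.1 (0.94, limma, adjusted p = 0.0375), and Nfkbie, an inhibitor of NF-κB, by 0.63 ± 0.09 and 0.67 ± 0.11. Med18, a Mediator subunit, was lower, at 0.915 and 0.814 RPKM in Liver 2Runx1 and 3.91 and 3.83 in Liver Ctrl, against 0.946 and 1.03 in E13.5 2Runx1 and 4.4 in E13.5 Ctrl. In the E13.5 1Runx1 libraries Med18 was at 3.87 and 3.96 RPKM, near the Ctrl level. C1qb, a subunit of complement C1q, was at 27 and 27.4 RPKM in Liver 2Runx1 and 56.4 and 53.1 in Liver Ctrl, against 2.12 and 2.24 in E13.5 2Runx1 and 5.8 in E13.5 Ctrl. C1qa, its neighbour and partner subunit, did not move with it in liver, at 15.9 and 17 RPKM in 2Runx1 against 14.8 and 16.7 in Ctrl. Across 12545 genes other than Runx1 the liver and E13.5 effects had a Pearson correlation of 0.15, given as a description over genes that share libraries.

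Open chromatin was compared through the authors' ATAC-seq peak lists, of which there was 1 per group, so no replicate check was possible. ATAC-seq marks accessible DNA by transposase insertion. The Liver 2Runx1 list held 39469 peaks and the Liver Ctrl list 39019; 12235 (31.0%) of the 2Runx1 peaks overlapped no Ctrl peak and 11769 (30.2%) of the Ctrl peaks overlapped no 2Runx1 peak. At E13.5 the lists held 80857 peaks in 2Runx1 and 96537 in Ctrl, with 7821 (9.67%) found in 2Runx1 only and 23151 (24.0%) in Ctrl only. Peaks in 1 list only were weaker, with a median −log10 q of 2.52 in Liver 2Runx1 against 11.5 for shared peaks.

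Peaks near the genes with called differences were counted next. Within the gene and 10 kb on either side, such a peak was present for 22.9% of genes with a positive difference and 31.4% with a negative one, against 27.4% of all genes tested. Peaks of Liver Ctrl only were near 26.5%, 39.4% and 31.8%. Peaks of E13.5 2Runx1 only were near 19.3%, 30.6% and 23.3%, and peaks of E13.5 Ctrl only near 42.2%, 58.4% and 49.8%, and the share was highest for genes with a negative difference in all 4 cases. Genes with a negative difference also had more peaks of any kind, with means of 2.69 in the Liver 2Runx1 list, 2.91 in Liver Ctrl, 5.31 in E13.5 2Runx1 and 6.14 in E13.5 Ctrl. Over all genes these means were 2.47, 2.57, 4.63 and 5.41. The share of negative-difference genes with any peak went the other way. It was 88.2% in the Liver 2Runx1 list and 88.4% in Liver Ctrl, against 92.3% and 92.1% of all genes. In the E13.5 2Runx1 and E13.5 Ctrl lists it was 95.3% and 95.6%, against 96.6% and 96.9%. With a −log10 q of at least 10, the liver means were also lower, at 1.24 and 1.37 against 1.31 and 1.41. All 30 mitosis genes had a peak in each of the 4 lists, as did 92.1% to 96.9% of all genes in each list taken alone, and 6 had a peak in Liver 2Runx1 only and 9 in Liver Ctrl only. F2rl3 had a peak in Liver 2Runx1 only at 8:72761816-72761923, inside the gene (authors' fold enrichment 6.40, −log10 q 6.49), and no peak in Liver Ctrl. Pla2g7 had a peak in Liver 2Runx1 only at 17:43606872-43607007 (fold enrichment 5.26, −log10 q 4.42) and a peak in Liver Ctrl only at 17:43568448-43568608 (4.99 and 4.13), which overlaps the promoter window printed above. A further Pla2g7 peak in Liver Ctrl only lay at 17:43581586-43581719 (3.37 and 1.68). Ackr1 had a peak in Liver Ctrl only at 1:173323956-173324122 (5.06 and 4.43), beyond the 3′ end of this minus-strand gene. A peak in E13.5 Ctrl only overlapped this site (1:173323946-173324057, 4.71 and 6.46), and Ackr1 had no called change at E13.5 (effect 0.13).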

How the data were processed

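RNA-seq gene levels were deposited by the authors as RPKM for 13 libraries. Per the submitters' processing notes the tools were Trim Galore 0.6.4, STAR 2.7.3a, featureCounts of Subread 2.0.0 and edgeR, with builds mm10 and GRCm38; the notes give no role for each. The deposited RPKM are whole reads per gene divided by length and a library factor: whole reads were recovered for 100% of the 20720 genes above 0 (tolerance 0.001 reads), and the factor beyond the recovered total was 0.828 to 0.844 in liver and 1.106 to 1.129 at E13.5.

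Genes that reached an RPKM of 1 in 2 or more of the 13 libraries were fitted as log2(RPKM + 1) with limma 3.58.1 in R 4.3.3, with an intensity trend, 7 group means and 6 residual degrees of freedom. Fold changes of low genes are understated on this scale. Tests were two-sided with Benjamini-Hochberg adjustment over all 12546 genes. A called difference has an adjusted p under 0.05. Alternatives were a pseudocount of 0.1, no filter, a minimum of 5, quantile normalization, median centring, the 7 libraries alone, a replicate block, each replicate left out, and limma-voom on recovered reads, with 1227 called differences. The fit was tested on simulated data.

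The ATAC-seq peak lists were deposited as 1 pooled list per group, with a fold enrichment (ratio) and a −log10 q value per peak from the authors; MACS2 2.1.4 is among the submitters' tools. Peaks overlapping by at least 1 base counted as shared. Gene spans with 10 kb on both sides replaced the planned gene starts, because starts with strand were at hand for under 80% of the genes; this and the CCAAT and CHR letters were chosen after seeing the data. H3K4me1 and input libraries were not used here.

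The members and gene lists were chosen with earlier results of these data known. Named genes are Runx1, the 12 largest and 12 smallest called differences with predicted and small RNA genes left out, up to 4 called members of each list (or 2 by p), and 8 genes changed alike in both stages; other genes were chosen after their values were seen.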

Additional observations from a re-analysis of the deposited data

Results flagged for a closer look

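The 2Runx1 minus Ctrl effect differed between liver and E13.5 in 1392 genes by the limma test of the difference itself (adjusted p under 0.05), and the named genes among them follow with their difference of effects, liver minus E13.5, in log2(RPKM + 1). No cause was tested for these values. Each of the 6 libraries other than the lone E13.5 Ctrl was left out in turn; for genes whose call ended, the highest adjusted p (limma) and the number of such fits in which it ended are given. Runx1 differed by 1.68 and its partners Cbfb by 0.55 and Tle1 by −0.62. For Tle1 the call ended without each of the 4 liver libraries, with an adjusted p of up to 0.100 without Liver 2Runx1 replicate 2, and in 6 of 14 other settings in all.

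Cell division genes differed by 2.12 (Ube2c), 2.09 (Ccnb1), 2.07 (Cks1b), 2.05 (Cenpk), 2.04 (Rrm2), 2.01 (Ccna2), 1.99 (Top2a), 1.95 (Uhrf1), 1.76 (Tk1) and 1.67 (Mcm5), and Myc by 1.22. Other genes with large positive differences were Pla2g7 (3.09), Gdpd3 (2.90), Zfp429 (2.47), Trim12a (2.44), Tubb6 (2.43), Rnaset2b (2.41), Trim30d (2.25) and D17H6S56E-5 (2.06). The largest negative differences were in Ifi202b (−4.81), Ifi44l (−4.58), Ackr1 (−3.41), Pcp4l1 (−2.89), Cda (−2.12), Mctp1 (−1.55), Cyp26b1 (−1.48), Gpr155 (−1.42), Sfn (−1.36), Calr3 (−1.35), Isg15 (−1.33) and Ypel3 (−1.32). The call of Rnaset2b (0.125 and 5) was weakest without Liver Ctrl replicate 1.

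Endothelial genes differed by 0.79 (Plvap), 0.62 (Nr2f2), −0.52 (Sox17), −0.58 (Erg), −0.60 (Cd34), −0.68 (Gja4), −0.74 (Dll4), −0.74 (Wnt2), −0.76 (Vwf) and −1.08 (Vegfc). Notch genes differed by 0.78 (Nrarp) and −0.78 (Hes1). TGFβ genes differed by 1.29 (Angptl4), 1.03 (Tgfb3), −0.48 (Hbegf), −0.79 (Fn1) and −1.03 (Cdkn1a). Genes of endothelial to mesenchymal transition differed by 0.91 (Twist1), 0.65 (Snai1) and 0.58 (Snai2). The call of Cd34 (0.0511 and 1) was weakest without Liver 2Runx1 replicate 1. The call of Dll4 (0.112 and 5), Fn1 (0.0724 and 4), Nr2f2 (0.137 and 5), Snai1 (0.156 and 4), Snai2 (0.103 and 3), Vwf (0.102 and 5) and Wnt2 (0.0509 and 2) was weakest without Liver 2Runx1 replicate 2. The call of Hbegf (0.0644 and 2), Hes1 (0.051 and 1) and Sox17 (0.143 and 4) was weakest without Liver Ctrl replicate 1. Among all 14 other settings the call of Snai1 ended in 11 and that of Snai2 in 5.

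Hemogenic, leukotriene and platelet genes differed by 1.25 (Ppbp), 0.86 (Gata1), 0.72 (Itgb3), −0.41 (Clec1b), −0.84 (Adgrg1), −0.84 (Alox5) and −0.998 (Procr). Inflammatory, interferon and stress genes differed by 0.78 (Nfkb1), −0.31 (H2-D1), −0.52 (Ier2), −0.56 (Apaf1), −0.58 (Irgm1), −0.60 (Mx2), −0.68 (Nfkbia), −0.85 (Rsad2) and −1.09 (Csf1). Glycolysis and hypoxia genes differed by 0.48 (Eno1), 0.47 (Ldha), −0.40 (Vegfa) and −0.48 (Egln3). The call of Ier2 (0.0908 and 4), Mx2 (0.0722 and 3), Ppbp (0.0726 and 4) and Vegfa (0.121 and 5) was weakest without Liver 2Runx1 replicate 1. The call of Adgrg1 (0.0554 and 2), Alox5 (0.0533 and 1), Apaf1 (0.136 and 4), Egln3 (0.0617 and 4), H2-D1 (0.117 and 6) and Procr (0.0702 and 5) was weakest without Liver 2Runx1 replicate 2. The call of Itgb3 (0.0797 and 3) was weakest without Liver Ctrl replicate 1.

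Markers of other cells differed by 1.32 (Apoa1), 1.14 (Tyrobp), 1.06 (Fgb), 1.02 (Afp), 1.01 (Klf1), 0.96 (Hemgn), 0.94 (Rbp4), 0.76 (Ermap), 0.67 (Nes), 0.62 (Adgre1), 0.61 (C1qa) and −0.91 (Lrat). The call of C1qa (0.0676 and 2), Lrat (0.0904 and 3) and Tyrobp (0.067 and 3) was weakest without Liver 2Runx1 replicate 2. The call of Adgre1 (0.117 and 4), Ermap (0.0825 and 5), Klf1 (0.107 and 6) and Rbp4 (0.0761 and 3) was weakest without Liver Ctrl replicate 1.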

How the results depend on the processing

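The number of called differences, 1392, lay between 811 and 1583 when each replicate was left out in turn, and the liver count, 3170, between 1978 and 3490. The E13.5 count of 34 was 54 by limma-voom on recovered reads, 149 with no filter, 18 with a pseudocount of 0.1 and 17 to 256 with 1 replicate left out; the single E13.5 Ctrl library could not be left out. Of 85 named genes with a called difference, 44 kept the call in every one of 14 settings and 41 lost it in at least 1. Signs turned for Alox5 (0.33 by limma-voom), Cd79b (0.13 by limma-voom, 0.024 with a pseudocount of 0.1, −0.24 to 0.11 with 1 replicate left out), Camp (−0.91 and −0.063 by the first 2 of these settings), Krt7 (−0.00090 to 0.53 with 1 replicate left out), Stat4 and Dok2 (−0.25 and −0.10 after quantile normalization), Med18 (−0.00067 after median centring), Ltc4s (−0.41 to 0.092) and Nfkbie (−0.12 to 0.033), both with 1 replicate left out, and Def6 (0.46 by limma-voom, 0.25 with a pseudocount of 0.1); the cause was not tested. Differences between replicates 1 and 2 correlated over genes at −0.06 to 0.107 between groups, highest for Liver 2Runx1 and Liver Ctrl. Such values cannot tell whether samples shared a litter, day or batch, because the labels do not state it. With the replicate block 1385 differences were called (1044 positive, 341 negative). Levels near 0 RPKM and the single E13.5 Ctrl library limit the precision.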
